A study of Mus musculus with 2 samples.

Results

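The death receptor gene Fas and 9 genes of the BCL2 family were examined in rib chondrocytes of mice aged 5 days, with and without the V156D mutation of Matn1. The genes were chosen by symbol as Bid, Pmaip1, Bbc3, Bcl2l11, Bax, Bak1, Bcl2, Mcl1 and Bcl2l1 beside Fas, and all probe sets that the platform annotation ties to 1 of these symbols alone were taken. This gave 28 probe sets of 45037 on the array, which represented 9 of the 10 genes. No probe set was tied to Bax, so Bax has no value here. The set was proposed after differences in Fas, Bid and Pmaip1 had been seen in these arrays, so their ratios are a description and were not tested.

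Each genotype was represented by 1 array, wild type or V156D mutant, hybridised with total RNA of collagenase-released rib chondrocytes. Matn1 encodes matrilin-1, a protein of the cartilage matrix, and the mutant mice carry the V156D change as a knock-in. The design text describes a pool of cells from 5 littermates, so variation from animal to animal was averaged within an array and cannot be estimated. The sources used here do not say whether the mutants carried 1 or 2 mutant copies, nor the strain, the sex of the pups or whether 5 animals were pooled for each genotype. No value below has a replicate error, since a genotype is a single array, and ratios are given as mutant over wild type throughout.

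Apoptosis is started by 2 routes that meet at the caspases. Fas, the receptor of Fas ligand at the cell surface, recruits FADD and caspase-8, and caspase-8 cuts BID, which carries the signal to mitochondria. In the mitochondrial route, BH3-only proteins (BID, NOXA from Pmaip1, PUMA from Bbc3 and BIM from Bcl2l11) bind the anti-apoptotic proteins BCL2, MCL1 and BCL-XL (from Bcl2l1) or activate BAX and BAK, which open pores in the outer mitochondrial membrane. Several of these genes, including Fas, Pmaip1, Bbc3 and Bax, are known targets of p53. In cartilage, chondrocyte death is known from the end of the growth plate and from degenerating joints.

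Promoter sequences were read for the members from RefSeq (GRCm38.p6), in windows of 250 bases before an annotated start. Windows were used for 9 members, 14 windows in all, and Pmaip1 was not among them. The search of member windows left out a chromosome that the counts over all genes kept. The lack of a Pmaip1 window thus says nothing about that gene. The sequences of Fas, Bcl2l11 and Bcl2 are shown because Fas had the lowest and Bcl2 the highest ratio among members above the signal floor defined below, and Bcl2l11 is a BH3-only gene whose window lies wholly before the gene. Capitals mark GGGCGG on the strand shown or as CCGCCC on the other, the letters known as a GC box, in overlap with no other motif searched. The Fas sequence is chr19:34290409-34290646 on the plus strand, Bcl2l11 chr2:128125788-128126037 on the plus strand and Bcl2 chr1:106714291-106714540 on the minus strand, each 5′ to 3′, and the Fas sequence ends where the annotated gene begins.
Fas: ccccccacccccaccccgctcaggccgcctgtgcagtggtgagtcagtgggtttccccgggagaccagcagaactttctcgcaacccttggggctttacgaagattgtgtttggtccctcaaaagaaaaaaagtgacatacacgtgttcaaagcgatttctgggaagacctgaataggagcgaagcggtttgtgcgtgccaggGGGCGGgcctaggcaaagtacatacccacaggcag
Bcl2l11: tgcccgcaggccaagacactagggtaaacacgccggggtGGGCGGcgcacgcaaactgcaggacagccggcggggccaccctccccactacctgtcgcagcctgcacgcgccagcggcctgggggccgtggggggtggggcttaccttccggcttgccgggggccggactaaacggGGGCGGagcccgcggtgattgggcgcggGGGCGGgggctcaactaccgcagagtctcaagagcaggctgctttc
Bcl2: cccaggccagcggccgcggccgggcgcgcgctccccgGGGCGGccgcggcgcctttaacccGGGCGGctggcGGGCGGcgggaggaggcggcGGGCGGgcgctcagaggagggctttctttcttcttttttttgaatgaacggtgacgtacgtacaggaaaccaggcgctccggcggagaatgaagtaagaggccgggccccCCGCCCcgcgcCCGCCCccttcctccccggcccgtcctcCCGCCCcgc

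The Fas stretch held 1 match to GGGCGG, that of Bcl2l11 3 matches and that of Bcl2 7 matches. The window of Bid held 3 matches, but 238 of its 250 bases lie inside the annotated gene. All windows of Bbc3, Mcl1 and Bcl2l1 and the second of Bcl2l11 lie wholly inside the annotated gene. Of the 14 member windows, 10 windows of 7 genes held at least 1 match, against 32.7% of 32851 windows of all genes. Bbc3, Bcl2l11 and Bcl2l1 gave several windows, some of which overlap for Bbc3, so these are not shares of genes. No member window held TATAA on either strand, letters found in 22.8% of all windows. The decamer of the p53 response element was found in 1 member window, that of Bax, and in 7.13% of all windows, with Pmaip1 not searched. GC content was 56.4% before Fas, 63.6% in the Bid window, 72% in the first Bcl2l11 window and 74.8% before Bcl2, with a median of 52.4% over all windows. A match is a description of letters in these windows and no evidence of binding.

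The chondrocyte identity of the samples was checked first. All 15 chondrocyte markers, among them Col2a1 and Acan, had signals above the floor in both arrays, and 10 had ratios above 0 and 5 below, or 8 and 7 after centring on the array median. The signal of Matn1 itself was 4373 on the wild-type and 4340 on the mutant array. The array medians were 54.3 and 55.1. The signal floor was the median over probe sets of the log2 signal averaged across arrays (the 50th percentile), an intensity of 54.6, and 11329 of 18193 genes reached it with their brightest probe set. At or above the floor, 0.909% of genes differed at least 2-fold, 0.256% being lower and 0.653% higher, and the central 95% of log2 ratios ran from -0.55 to 0.49. Where a gene had several probe sets, the ratios of the brightest pair differed with an SD of 0.26 over genes, a measure of probe error that holds nothing of the error between samples.

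Markers of fibroblasts and endothelial cells differed between the same arrays, whereas leukocyte markers had no settled direction. Of 16 fibroblast, tendon and perichondrium markers, 14 had ratios above 0, and their summed intensity was 56923 on the wild-type and 87056 on the mutant array. All 11 endothelial markers had ratios above 0, with sums of 744 and 1218. Of 12 leukocyte markers measured, 8 had ratios above 0, and the sums were 2109 and 1826. The lower sum came from Cd14, at 1500 and 1187, and without it, a sum taken after the values were seen, the other 11 gave 608 and 638. Of the 6 that reached the floor 4 had ratios above 0, or 3 after centring, quantile normalization or a loess correction. Ptprc, the leukocyte common antigen, was below the floor in both arrays at 11.1 and 10.8, and no marker of these lists was at 0. All 14 heat shock genes measured had ratios below 0, with a median of -0.78. Beside these counts, 52.1% of all genes had ratios below 0, and 55% of those at or above the floor. Xist, transcribed from the inactive X chromosome, was at 7755 and 5006, and the Y-linked Eif2s3y at 230 and 490, which were chosen after their values were seen. The part of these differences in the ratios below was not tested, and sex composition and genotype cannot be told apart. In such bulk samples, fewer cells of a type and less RNA per cell cannot be told apart either.

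Among the members, Fas, Pmaip1 and Bid, whose differences were known when the set was proposed, had the lowest ratios. Bcl2l11 and Bbc3 were slightly lower in the mutant array, and the anti-apoptotic genes lay near 0. Of the 9 measured genes, 7 had ratios below 0 and 2 above, with a median of -0.19 over all 9. In the whole array 52.1% of genes had ratios below 0, and 55% of those at or above the floor, where the median ratio was -0.02. At or above the floor were 7 members, and 1 of them, Fas, was at least 2-fold lower, where 0.256% of all genes were. Without the floor, Pmaip1 joined it, so that 2 of 9 members were at least 2-fold lower, beside 0.198% of 18193 genes. The genes were chosen with these differences known, so nothing is read from that contrast or from the direction of the members' ratios.

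**Figure D1:**
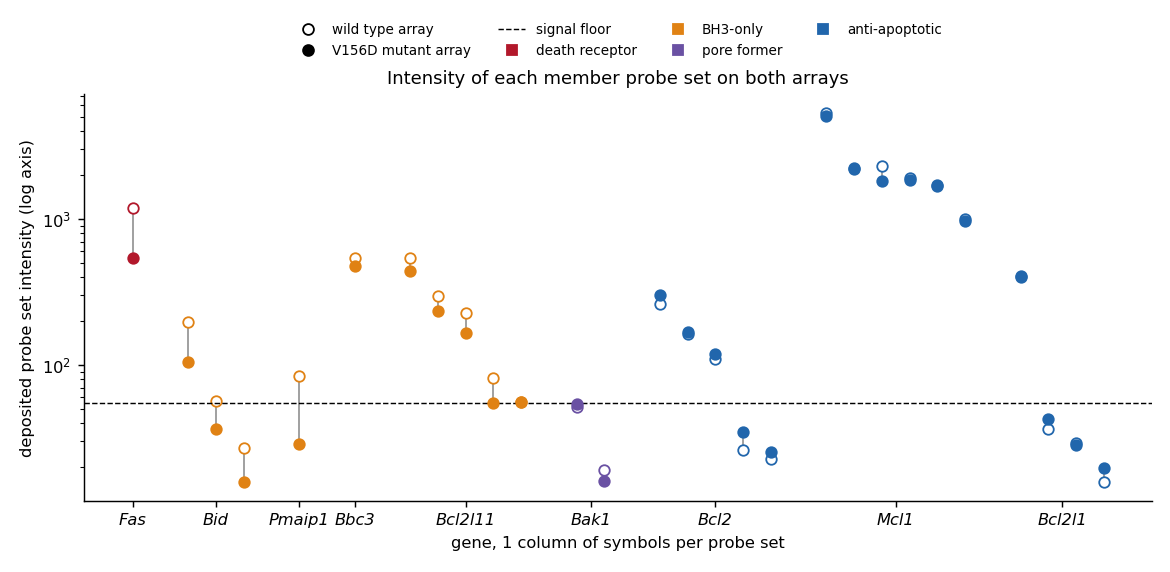
Deposited intensity of each of the 28 member probe sets (log axis) on the wild-type array (open) and the V156D mutant array (filled), grouped by gene and coloured by role, with the signal floor of 54.6 dashed. Fas, Bid and Pmaip1 show the widest gaps, whereas the filled and open symbols of Mcl1 nearly coincide in 5 of its 6 probe sets.

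The receptor gene Fas had a lower signal in the mutant array. Its single probe set gave an intensity of 1187 on the wild-type and 545 on the mutant array. That is a log2 ratio of -1.12, or 2.18-fold lower. Both values lie far above the floor intensity of 54.6. Among genes at or above the floor 16 had a lower ratio than Fas, and its nearest neighbours in that order, picked for their rank, were Klk10 at -1.12 and Aldh1a3 at -1.11. With 1 probe set there is no second measure of Fas within these arrays.

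Fadd and Casp8, of the first steps behind the receptor, had small ratios, and the ligand gene was too dim to compare. Fasl, the ligand gene, was below the floor in both arrays, at 17.9 and 21.1, so no difference or lack of one is read from it. Fadd, the adaptor, had 72.6 and 82.3, a log2 ratio of 0.18, with its 2 probe sets on either side of 0. Casp8, the initiator caspase, had 304 and 293, a log2 ratio of -0.05. These 3 genes were named after their values were seen. Other genes behind the receptor, given below, ran from -0.53 for Cflar to 0.64 for Ptpn13.

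The BH3-only genes of the set were lower in the mutant array in 9 of 10 probe sets, and the remaining one had a log2 ratio of 0.00. Over all probe sets tied to 1 gene 50.5% had ratios below 0. The set was proposed with the differences in Bid and Pmaip1 known, and probe sets of 1 gene share the same RNA. Nothing is therefore read from that contrast. The median over the 4 genes was -0.60, but the 4 genes divided into a pair with large ratios and a pair with small ones.

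Bid, whose protein links death receptors to mitochondria, had 197 on the wild-type and 106 on the mutant array with its brightest probe set. The log2 ratio was -0.90, or 1.87-fold lower, short of 2-fold. Its second probe set had 56.7 and 36.5, a log2 ratio of -0.63, with the mutant value and the mean signal below the floor. The last had 26.9 and 15.7, a log2 ratio of -0.77, with both values below the floor. All 3 probe sets thus had ratios below 0, with a mean of -0.77 ± 0.13 (SD over the 3 probe sets, which share the same RNA). Ratios all below 0 were found in 17.8% of the 2366 genes with 3 probe sets.

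Pmaip1, which encodes the BH3-only protein NOXA that binds MCL1, had 84.0 on the wild-type and 29.0 on the mutant array. The log2 ratio was -1.54, or 2.90-fold lower, the lowest of the members. The wild-type value lay above the floor and the mutant value below it, and the mean signal missed the floor. When an offset of 32 was added to both values before log2, the ratio was -0.93, so its size depends on how a low signal is treated. Over all 18193 genes, 3 had a lower ratio, namely Ifi202b, Dusp4 and Gbp2, named after their values were seen. Like Fas, Pmaip1 has 1 probe set, and no second measure exists.

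Bcl2l11, which encodes BIM, was lower by smaller amounts. Its brightest probe set had 543 on the wild-type and 442 on the mutant array, a log2 ratio of -0.30. The next had 299 and 235, a log2 ratio of -0.34, and another 226 and 165, a log2 ratio of -0.45. These 3 probe sets were all lower in the mutant array. The lowest log2 ratio, -0.56, was that of a probe set with 81.6 and 55.3. Both this probe set and the brightest one may match several transcripts. The dimmest was equal in both arrays, at 55.7 and 55.7. The mean was -0.33 ± 0.21 (SD over 5 probe sets), and the brightest probe set lay within the central 95% of all genes.

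Bbc3, the gene of PUMA, had 543 on the wild-type and 477 on the mutant array. Its log2 ratio of -0.19 came from 1 probe set, and 21.1% of genes at or above the floor had a lower one. The p53 targets Fas, Pmaip1 and Bbc3 had log2 ratios of -1.12, -1.54 and -0.19, and a part of p53 in them was not tested.

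**Figure D2:**
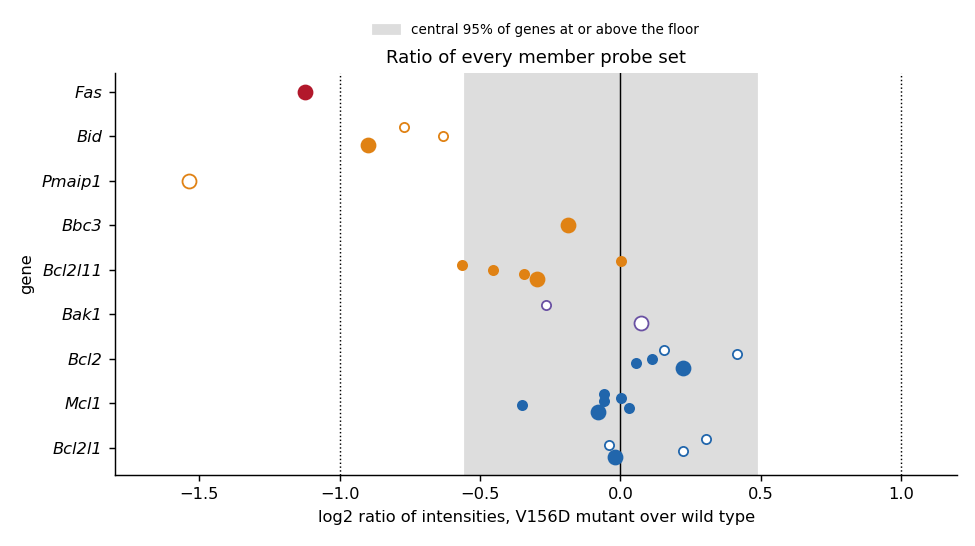
Log2 ratio of mutant over wild-type intensity for every member probe set, with the brightest of each gene as the larger symbol, filled symbols for a mean signal at or above the floor, and colours for the death receptor (red), BH3-only (orange), pore-forming (purple) and anti-apoptotic (blue) genes. The grey band is the central 95% of genes at or above the floor (-0.55 to 0.49), and Fas, all 3 Bid probe sets, Pmaip1 and 1 of 5 Bcl2l11 probe sets lie outside it.

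The pore-forming gene Bak1 had no settled direction. Its brighter probe set had 51.2 on the wild-type and 53.9 on the mutant array, a log2 ratio of 0.07. The other had 19.2 and 16.0, a log2 ratio of -0.26. All 4 values lay below the floor, and the mean over both probe sets was -0.10. Bok, a related gene on the list of other BCL2 family members and named after its value was seen, had 161 and 158, a log2 ratio of -0.03.

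The anti-apoptotic genes showed small ratios in either direction. Of their 15 probe sets 6 had ratios below 0 and 9 above, with a range from -0.35 to 0.42 and a median of 0.03. All of these lay inside the central 95% of genes at or above the floor.

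Bcl2, the founding member of the family, had 261 on the wild-type and 304 on the mutant array with its brightest probe set, a log2 ratio of 0.22. The next had 162 and 169, a log2 ratio of 0.05, and another 111 and 120, a log2 ratio of 0.11. Below the floor were the pairs of 26.1 and 34.9 and of 22.9 and 25.5, with log2 ratios of 0.42 and 0.16. All 5 probe sets were higher in the mutant array, with a mean of 0.19 ± 0.14 (SD over probe sets). Ratios all above 0 were found in 8.21% of the 463 genes with 5 probe sets.

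Mcl1, which encodes a short-lived survival protein, had 5343 on the wild-type and 5057 on the mutant array with its brightest probe set, a log2 ratio of -0.08. Its 6 probe sets lay at or above the floor and averaged -0.09 ± 0.14 (SD over probe sets), 4 below 0 and 2 above. In 5 of them the ratio was between -0.08 and 0.03. The probe set that differed from these had 2309 and 1810, a log2 ratio of -0.35.

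Bcl2l1, the gene of BCL-XL, had 409 on the wild-type and 404 on the mutant array with its brightest probe set. The log2 ratio was -0.02, and it was 0.03 after quantile normalization or a loess correction and 0.12 as the mean over probe sets, so the sign was not settled. The other 3 probe sets lay below the floor, with log2 ratios of 0.22, -0.04 and 0.31.

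**Figure D3:**
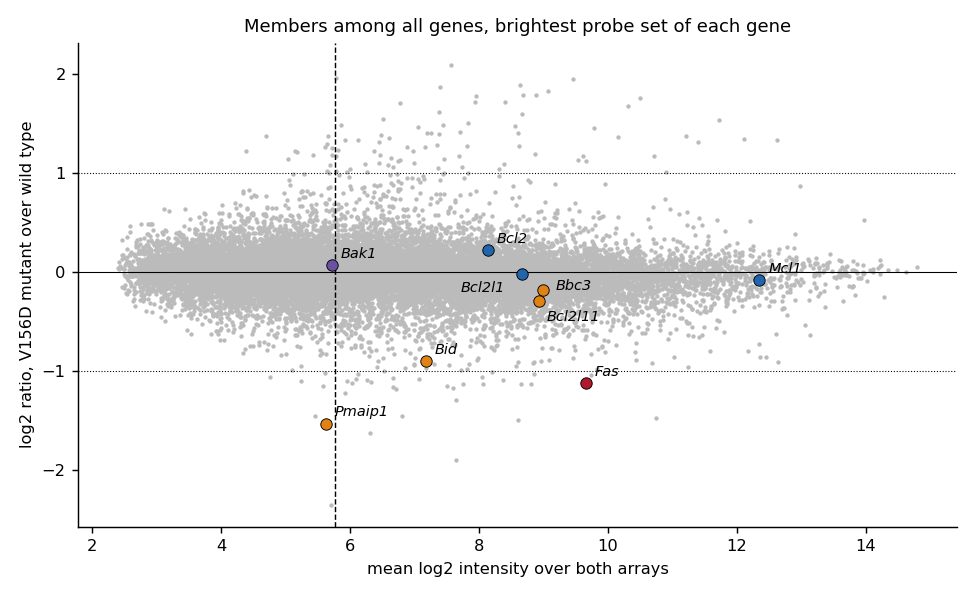
Log2 ratio of mutant over wild type against the mean log2 intensity over both arrays for 18193 genes (grey), each by its brightest probe set, with the 9 measured members coloured by role, the floor dashed and 2-fold differences dotted. Fas lies below the 2-fold line at high signal, Pmaip1 below it just under the floor, and Bcl2, Mcl1 and Bcl2l1 lie near 0.

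Most other BCL2 family genes were not lower in the mutant array. Of 11 at or above the floor, of 14 measured and 19 listed, 9 had ratios above 0 and 2 below, with a median of 0.07 and no gene 1.5-fold apart. After centring on the array median 7 were above 0 and 4 below. Bad, a further BH3-only gene, was highest with 187 and 229, a log2 ratio of 0.29. Bcl2l13 was lowest with 244 and 185, a log2 ratio of -0.40, though its other probe set was above 0. Bmf, a BH3-only gene named after its values were seen, had 0.07 with its brightest probe set and -0.21 ± 0.30 as the mean over 3 probe sets (SD over probe sets), so its direction was not settled.

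Among death receptors and ligands, 8 of 12 measured genes reached the floor, 5 of them lower and 3 higher, with a median of -0.25. None of them differed 2-fold, and 2 were at least 1.5-fold lower, where 2.02% of all genes at or above the floor were. After centring 6 were lower and 2 higher, and as the mean over probe sets 6 of 7 were lower. Tnfrsf11b, the decoy receptor osteoprotegerin, was lowest with 1450 and 866, a log2 ratio of -0.74, which was -0.45 as the mean over its 2 probe sets. Tnfrsf1b, a receptor of tumour necrosis factor without a death domain, was the other gene at least 1.5-fold lower. It had 247 and 148, a log2 ratio of -0.74. As the mean over its 2 probe sets this was -0.58, just short of 1.5-fold, so neither gene was 1.5-fold lower by that mean. Tnfrsf1a, the death-domain receptor of that cytokine, was highest with 1211 and 1288, a log2 ratio of 0.09. Tnfrsf10b, the TRAIL receptor, had 530 and 424, a log2 ratio of -0.32. Tnfrsf1b and Tnfrsf10b were named after their values were seen.

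Genes acting directly behind the receptors divided 9 below and 6 above 0 among 15 at or above the floor, with a median of -0.06. After centring 11 were below 0 and 4 above. Cflar, which encodes the caspase-8 inhibitor FLIP, was lowest with 236 and 164, a log2 ratio of -0.53, and -0.26 ± 0.20 as the mean over 5 probe sets (SD over probe sets). Ptpn13, a phosphatase reported to bind Fas, was highest with 94.2 and 147, a log2 ratio of 0.64. It was 1 of 2 genes of this list at least 1.5-fold higher, where 1.7% of all genes at or above the floor were. The other was Faim2, an inhibitor of Fas signalling, with 60.4 and 90.6, named after its values were seen. Faim2 was under 1.5-fold after centring, quantile normalization, a loess correction, the offset of 32 and as the mean over probe sets, and Ptpn13 with the offset and as the mean, at 0.50 in each.

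Mitochondrial effectors, caspases and their inhibitors divided evenly. The 20 measured genes all reached the floor, with 10 ratios on either side of 0, a median of -0.01 and no gene 1.5-fold apart. After quantile normalization 11 were above 0 and 9 below, and after centring 9 were above and 11 below. Ppif, the cyclophilin of the permeability transition pore, was lowest with 462 and 320, a log2 ratio of -0.53. Casp9, the apoptosome caspase, was highest at 0.35, which was 0.00 as the mean over its 3 probe sets. Regulators of BCL2 family proteins also divided evenly, 8 above and 8 below 0 among 16, with Bag6 highest at 0.11. Their lowest was Bag3, an Hsp70 co-chaperone of the heat shock response, with 4042 and 2324, a log2 ratio of -0.80.

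Transcription factors known to act on death genes lay close to 0. Of the 12 that reached the floor, 8 were lower and 4 higher, with a median of -0.03. After centring 10 were lower and 2 higher, with a median of -0.05. After quantile normalization 5 were lower and 7 higher, with a median of 0.01. Myc was lowest with 2429 and 1795, a log2 ratio of -0.44, and E2f1 highest at 0.29. Trp53 itself had no probe set tied to it alone.

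Targets of p53 outside the members mostly had small ratios. Of the 18 that reached the floor, from 19 measured, 13 had ratios below 0 and 5 above, where 55% of all genes at or above the floor were below 0, with a median of -0.17, which was -0.12 after quantile normalization or a loess correction. One gene was at least 1.5-fold lower, where 2.02% of all genes at or above the floor were. This was the kinase gene Plk2, the lowest, with 2467 and 1537, a log2 ratio of -0.68, or -0.35 as the mean over its 2 probe sets. Phlda3 was highest with 240 and 301, a log2 ratio of 0.33. Cdkn1a and Mdm2, common readouts of p53 activity chosen with their values known, had log2 ratios of 0.03 and -0.08. Aen, likewise named after its values were seen, had a log2 ratio of -0.53, with all 4 of its probe sets below 0. Fas and Pmaip1 were picked with their differences known, so the ratios of this list are not set against theirs. A part of p53 in these ratios was not tested.

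Genes of the interferon and inflammatory response, which is known to induce Fas, had more ratios below 0 than above. Of 14 at or above the floor 10 were below 0 and 4 above, where 55% of all such genes were below 0. Among them 4 were at least 1.5-fold lower, where 2.02% of all genes at or above the floor were, and no gene was 1.5-fold higher. At least 2-fold lower were 2, where 0.256% of all genes at or above the floor were, and the median was -0.27. Gbp2 was lowest with 140 and 45.2, a log2 ratio of -1.63, and Tap1, a peptide transporter of antigen presentation, highest at 0.18, which was -0.04 as the mean over its 4 probe sets. The other gene at least 2-fold lower was Gbp3, with 382 and 182, a log2 ratio of -1.07, which was -0.95 with the offset of 32 and so short of 2-fold. Irf1, the interferon-induced transcription factor, had 2889 and 2225, a log2 ratio of -0.38. Gbp3 and Irf1 were named after their values were seen.

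**Figure D4:**
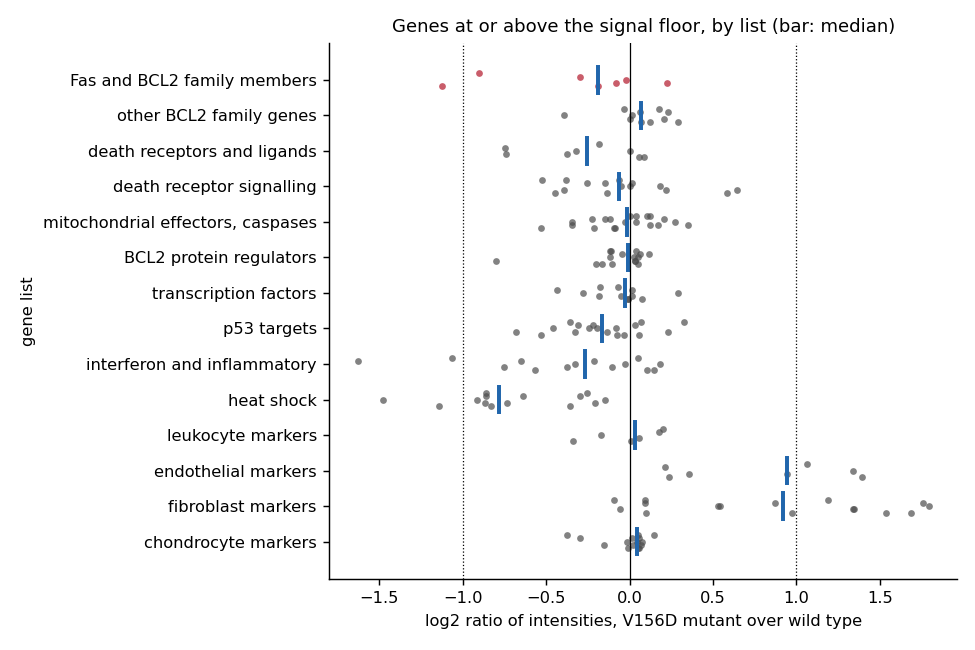
Log2 ratio of mutant over wild type for the genes at or above the floor in 14 lists, 1 point per gene with its brightest probe set, the list median as a blue bar and 2-fold differences dotted. The members' median is -0.19, those of heat shock genes -0.78 and of fibroblast and endothelial markers 0.92 and 0.94, and the other lists have medians between -0.27 and 0.07.

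The members' ratios were recomputed under 6 alternatives. Fas ranged from -1.14 to -1.05 on the log2 scale and was at least 2-fold lower as deposited and under each of the 4 alternatives that could move it. Of these, centring shifted every log2 ratio by -0.02 and could not bring Fas short of 2-fold. The 2 alternatives to the choice of probe sets could not move Fas, which has 1. Bid ranged from -0.92 to -0.74, Bcl2l11 from -0.34 to -0.23 and Bbc3 from -0.21 to -0.12. Bcl2 ranged from 0.19 to 0.26 and Mcl1 from -0.10 to -0.02. Pmaip1 ranged from -1.56 to -0.93, the last with the offset of 32. Bak1 and Bcl2l1 changed sign, from -0.10 to 0.07 and from -0.04 to 0.12.

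**Figure D5:**
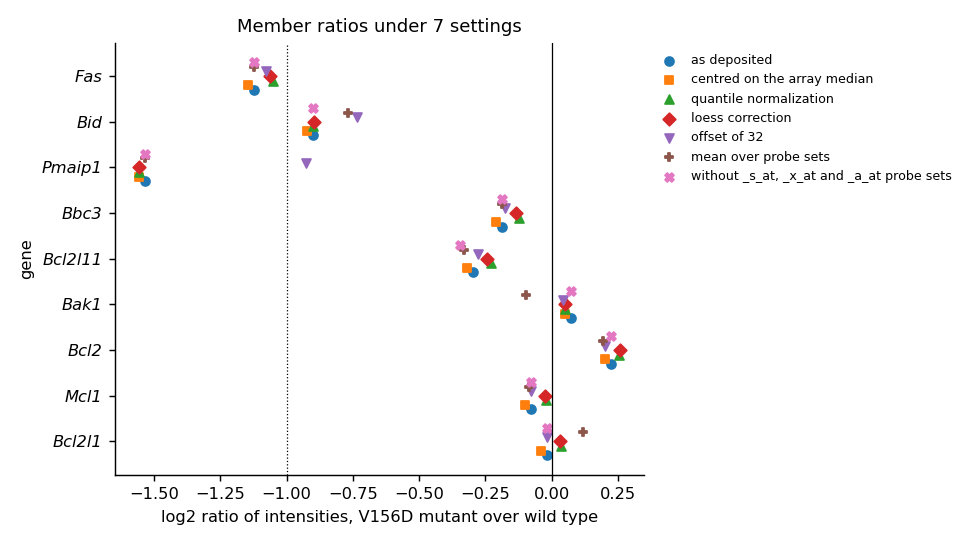
Log2 ratio of mutant over wild type for each measured member under 7 settings, which are the values as deposited and 6 alternatives to the scaling, the offset or the choice of probe sets. Fas stays left of the dotted 2-fold line, with 2 of the settings unable to move its single probe set, Pmaip1 crosses it with the offset of 32, and Bak1 and Bcl2l1 lie on both sides of 0.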

How the data were processed

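RNA was measured on Affymetrix Mouse Genome 430 2 arrays, 1 per genotype. The authors deposited 1 linear intensity per probe set and array. The submitters' processing notes name MAS5 with no version or settings, and no source used here states the scaling, the background step or detection calls. The values leave the summary method unsettled. Log2 ratios of bright genes end after few decimals, such as -0.0793 for Mcl1, which log2 values rounded at an earlier step would give. In the 3639 dimmest genes the central 95% of log2 ratios ran from -0.40 to 0.43, narrower than the -0.58 to 0.59 of 3639 genes of middling signal, whereas MAS5 signals usually scatter most when dim, so the size of a ratio at low signal, such as that of Pmaip1, is uncertain. Gene names come from GEO's annotation of the platform, checked by Entrez identifier against RefSeq (GRCm38.p6). Of 45037 probe sets 34945 had 1 symbol, 932 several and 9160 none. The log2 of the deposited intensity was used unchanged, and a gene was represented by its brightest probe set. No test was possible, so values are given beside the share of all genes past 2-fold. Signals were not compared between probe sets, whose affinities differ. The number of arrays limits the precision.

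The members and lists were chosen with earlier results of these data known. Named were all members, Matn1, and the highest and lowest gene at or above the floor of each list, printed for the lists on death pathways, p53 and interferon. Alternatives were centring, quantile normalization, loess (span 0.3), an offset of 32, the mean over probe sets, no probe sets ending in _s_at, _x_at or _a_at, no floor or one at the 40th or 60th percentile, and thresholds of 1.5-fold and 3-fold. Medians at or above the floor were 0.17 for 2 osteoblast genes, 0.31 for 1 erythroid gene, -0.44 for 5 muscle genes, 0.27 for 14 cell cycle genes and -0.10 for 19 immediate early genes. Over all measured, they were 0.25 for 5 osteoblast, -0.06 for 5 erythroid and -0.01 for 10 muscle genes, and the other lists had no gene below the floor. Scripts were tested on simulated data. Python 3.11.15, numpy 2.4.6, pandas 2.3.3, statsmodels 0.14.6 and matplotlib 3.10.9 were used.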

Additional observations from a re-analysis of the deposited data

How the results depend on the processing

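Of 54 member ratios recomputed under the alternatives, 11 could not move because the choice of probe sets left the same one, and centring lowered all by 0.02. Of the 43 free to move, 42 moved by less than the probe set SD of 0.26, and 4, of Bak1 and Bcl2l1, had the opposite sign. The exception was Pmaip1, at -0.93 with an offset of 32. The 43 include the values under centring, whose fixed shift could not reach 0.26, so the count is no measure of stability. The number of members past 2-fold was 1 of 7 at or above the floor (Fas), 2 with a floor at the 40th percentile or none (Fas and Pmaip1), 2 at 1.5-fold (Fas and Bid) and 0 at 3-fold. Over all genes, 103 differed 2-fold, 74 higher and 29 lower. With an offset of 32 this was 58, 45 higher and 13 lower, at 1.5-fold 422, 193 higher and 229 lower, and at 3-fold 18, 16 higher and 2 lower. The higher offset and threshold lower such counts by construction. The members' median ranged from -0.21 to -0.12, over 7 members in most settings. It was over 9 with a floor at the 40th percentile or none. As the mean over probe sets it was over 5, since Bid and Bcl2l1 then fell below the floor. No paired analysis was possible because each genotype has 1 array, and none could be left out. Signal over background limits Pmaip1, Bak1 and the dim Bid, Bcl2 and Bcl2l1 probe sets, since no detection calls were used.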
